A study of Saccharomyces cerevisiae with 12 samples.

Results

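The 10 genes described here encode regulators of stress genes in budding yeast: the kinases Rim15 and Yak1 and the transcription factors Hsf1, Msn2, Msn4, Yap1, Skn7, Gis1, Xbp1 and Usv1. They were taken by gene name from a table of 5045 genes, and all 10 were listed. Only their mRNAs were measured, so the values say nothing of the amount, place or activity of the proteins. The RNA was polyA RNA from cultures of a Saccharomyces cerevisiae strain labelled Sis1-AA (source DPY1284) in rich YPD medium. The heat shock course held an untreated culture at 30 °C and cultures moved to 39 °C for 15, 30, 60, 90 and 120 min. The rapamycin course held an untreated culture and cultures given 1 µM rapamycin for the same times. Rapamycin is used in this strain to pull Sis1, a J-domain partner of Hsp70, out of the nucleus (anchor-away). Every group was 1 library of that strain, and all 12 libraries carry the Sis1-AA label, the untreated ones included. The labels do not give the temperature of the rapamycin course. No rapamycin library of a strain without the tag was analysed here, so the drug and the loss of nuclear Sis1 cannot be told apart. In a bulk culture a change in a few cells and a change in all cells cannot be told apart either.

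Hsf1 is the essential activator of chaperone genes, and Hsp70 holds it in check in unstressed cells. Msn2 and Msn4 are paired zinc finger activators of the general stress response, which bind the stress response element and are kept out of the nucleus by protein kinase A. Yak1 is a kinase that works against protein kinase A, and Rim15 is a kinase that TOR and protein kinase A restrain and that prepares cells for quiescence. Yap1 and Skn7 are activated by oxidants, Gis1 acts at the diauxic shift, Xbp1 is a stress-induced repressor, and Usv1 is a zinc finger protein of growth on poor carbon sources.

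Depth ran from 2991418 to 4379304 reads over the listed genes, and the lowest count of any of the 10 genes was 33 reads, for USV1 in each untreated library. Levels are the authors' normalized counts, and changes are log2 differences after adding 1, each taken from the time 0 of its own course. The mean change of a gene is the average over the 5 treated times in a limma fit to all 12 libraries. A gene is called changed when its Benjamini-Hochberg adjusted p, over the 4937 genes tested, is under 0.05. The error of the fit is the scatter of treated libraries around a line in log2(time), pooled over both courses. No time point was replicated, so these p-values and standard errors (SE) describe these 12 libraries and not the spread between cultures. The untreated libraries differed from each other with an SD of 0.33 over genes on the log2 scale. YAK1 differed by 0.62, USV1 by 0.58, SKN7 by 0.45 and MSN2 by 0.38, each higher in the heat shock course. The other 6 regulators differed by 0.15 or less in either direction.

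The stretches of DNA before the start codons of YAK1, XBP1 and USV1 are shown first, because these genes had the largest heat rises of the 10 and held the most stress response elements. The element was searched as AGGGG, which reads CCCCT on the other strand, in the 500 bases before each start codon of the R64 assembly, the same build as the sacCer3 that the submitters' processing notes name. Of 6000 such windows 34.1% held at least 1 element and 1.8% held 3 or more. USV1 and XBP1 held 4 each, YAK1 held 3, GIS1 and YAP1 held 1, and the windows of RIM15, HSF1, MSN2, MSN4 and SKN7 held none. Each sequence below is RefSeq's S288C reference, written 5′ to 3′ on the coding strand of the gene with the element in capitals and up to 10 bases on either side.
YAK1 at chrX:150625-150649: accctaaccgCCCCTtctgaaccat
YAK1 at chrX:150598-150622: caagcaatgcCCCCTcctcagattt
YAK1 at chrX:150582-150606: ctcagatttaCCCCTtctgggctga
XBP1 at chrIX:177699-177723: ttcaccctcaCCCCTaatacccgtt
XBP1 at chrIX:177652-177676: tcgaagcgccCCCCTtgcgctgggc
XBP1 at chrIX:177572-177596: attgctattgCCCCTctccccttct
XBP1 at chrIX:177565-177589: ttgcccctctCCCCTtctcctctct
USV1 at chrXVI:114812-114830: gccaCCCCTtgatcgcctc
USV1 at chrXVI:114962-114986: ccgttgagtcCCCCTaagggcctta
USV1 at chrXVI:114982-115006: ccttatttatCCCCTctattttttt
USV1 at chrXVI:115045-115069: tcacggcttcCCCCTtaaccgttca
GIS1 at chrIV:636803-636827: gaaaacctccCCCCTcctcctcccg

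All 12 of these elements lie in the same orientation, with CCCCT on the coding strand. The single GIS1 element is printed with them, and that of YAP1 (chrXIII:253735-253759), in the same orientation, is not. Orientation was not compared with other windows. The YAK1 elements end 202, 218 and 245 bases before the start codon. The XBP1 elements end 325, 332, 412 and 459 bases before it, and those of USV1 253, 316, 336 and 492. In each of these 3 genes 1 pair of neighbouring windows overlaps, so some flanking bases are printed in both. A match is a run of letters and not a shown binding site. A heat shock element, searched as TTCNNGAANNTTC on both strands (1.5% of windows), was in none of the 10 windows, that of HSF1 included. The post-diauxic shift element, searched as TTAGGGAT or TAAGGGAT (2.6%), and the Xbp1 site CTCGAG (8.2%) were in none either. The Yap1 sites TTACTAA or TTACGTAA (12.9%) occurred once each for RIM15, SKN7 and USV1. No matches overlapped each other.

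RIM15 (YFL033C, chromosome VI, 69115 to 74427, minus strand) has the longest coding sequence of the 10, at 5313 bases. The others are YAK1 (YJL141C, X, 147967 to 150390, minus), HSF1 (YGL073W, VII, 368753 to 371254, plus), MSN2 (YMR037C, XIII, 344403 to 346517, minus) and MSN4 (YKL062W, XI, 323228 to 325120, plus). YAP1 (YML007W) lies at XIII, 253848 to 255800, plus, and SKN7 (YHR206W) at VIII, 512732 to 514600, plus. GIS1 (YDR096W) lies at IV, 637139 to 639823, plus, XBP1 (YIL101C) at IX, 175307 to 177250, minus, and USV1 (YPL230W) at XVI, 115312 to 116487, plus. Each is annotated as 1 exon. YAK1 overlaps 245 bases of IRC9 on the same strand, so reads there can be split or dropped by the counting. IRC9 was at 25.7 to 73.2 in the 12 libraries. No other member overlaps an annotated gene.

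**Figure D1:**
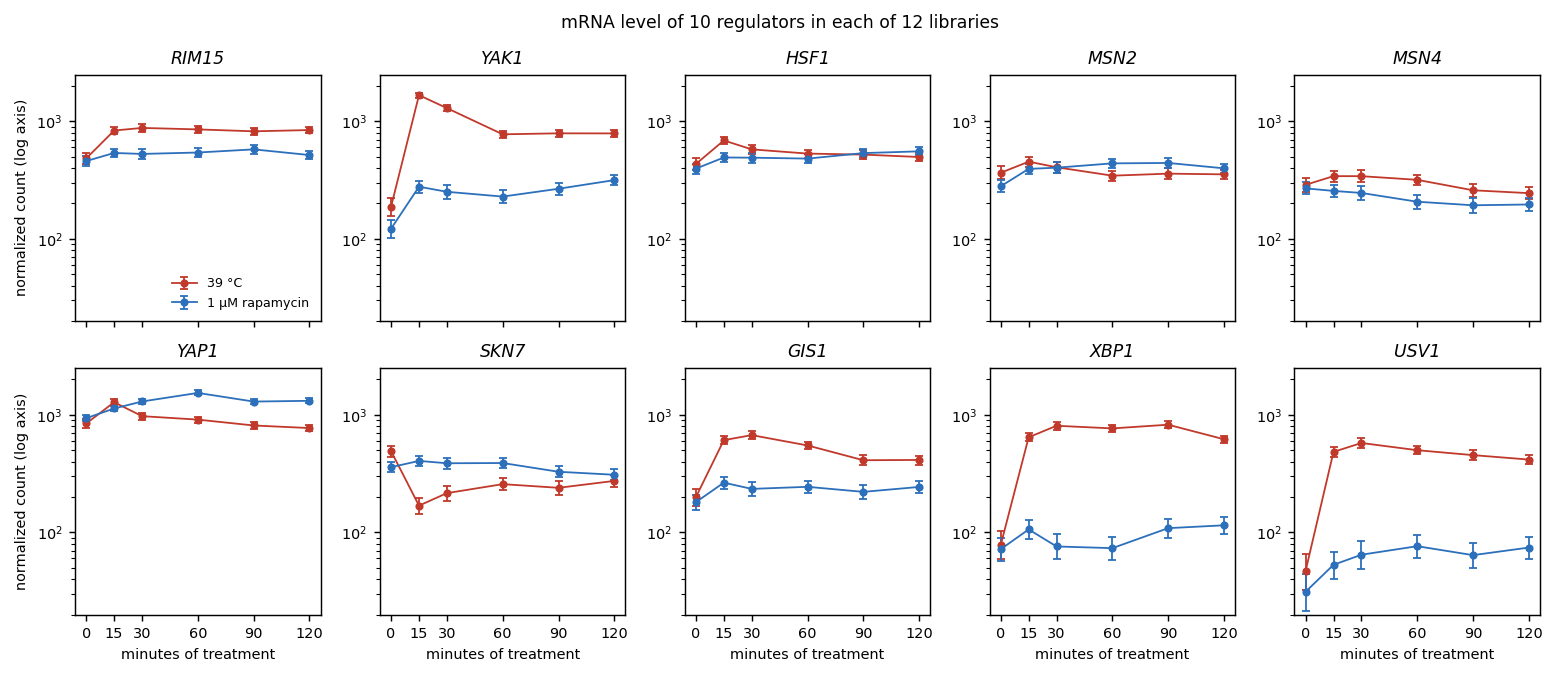
Normalized count (log axis) of each regulator mRNA against minutes of treatment, with 1 point per library, red for 39 °C and blue for rapamycin. Bars are exact 95% Poisson intervals of the reads (counting error only). YAK1, GIS1, XBP1, USV1 and RIM15 run higher at 39 °C than with rapamycin at all 5 treated times, and SKN7 runs lower.

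Heat shock raised 6 of the 10 regulator mRNAs (RIM15, YAK1, HSF1, GIS1, XBP1 and USV1) and lowered SKN7. MSN2, MSN4 and YAP1 were not called. Over all genes tested 69.8% were called in heat shock, 32.6% higher and 37.2% lower. With rapamycin 5 rose (YAK1, HSF1, MSN2, YAP1 and USV1), none fell and 5 were not called, against 26.3% of all genes called, 12.3% higher and 13.9% lower. The median mean change over all genes was −0.08 in heat shock and −0.05 with rapamycin. When all libraries were scaled to the same total, the heat shock median moved up by 0.27, and 9 of the 10 regulators were then called, because MSN2 (0.34) and YAP1 (0.42) passed.

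Among the kinases, YAK1 began the heat shock course at 188 and read 1669.6, 1294, 775, 790.3 and 789 from 15 to 120 min. Its peak at 15 min was 8.87 times the untreated level (95% counting interval 7.42 to 10.7), and the libraries from 60 to 120 min were at 4.12 to 4.20 times. With rapamycin it stood at 122 untreated and at 278, 251, 229, 267 and 316 at the 5 times. All treated libraries of both courses lay above both untreated ones, and the ranges of the courses did not overlap. YAK1 rose by 2.42 ± 0.18 (SE) on average in heat shock, a fold of 5.34, and by 1.12 ± 0.18 with rapamycin, a fold of 2.17 (limma adjusted p 1.56e-06 and 0.00277). If each course is read from the time 0 of the other (an exchange of the untreated libraries), the rapamycin value is 0.50 and not called.

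RIM15 rose less and kept to a narrow range. It stood at 483 untreated and at 835, 878, 853, 822 and 843 over the heat shock course. With rapamycin it went from 459 to 538, 528, 543, 577 and 516. The heat shock rise of 0.81 ± 0.11 (SE), a fold of 1.75, was called (adjusted p 6.22e-05), and the rapamycin value of 0.23 ± 0.11 was not (adjusted p 0.128).

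HSF1 differed by 1.74 times between its lowest and highest library. It stood at 434 untreated and at 687, 577, 531, 521 and 497 over the heat shock course, so it was highest at 15 min. With rapamycin it went from 396 to 492, 490.4, 482, 536 and 555, highest in the last library. Every treated library of both courses was above both untreated ones. The mean change was 0.37 ± 0.11 (SE) in each course, a fold of 1.29 (adjusted p 0.0105 in heat shock and 0.031 with rapamycin). The rapamycin call was lost with the untreated libraries exchanged (0.23), with the slope in minutes (0.37), on dropping heat shock 90 min (0.37) and on dropping rapamycin 15, 90 or 120 min (0.34 to 0.36).

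MSN2 and MSN4 were not called in heat shock, and with rapamycin MSN2 rose. MSN2 stood at 365 untreated and at 453, 407, 345, 359 and 354 over the heat shock course. With rapamycin it went from 280.2 to 394, 403, 439, 442 and 398, and all of these lay above both untreated libraries. Averaged over the treated times MSN2 was at 0.06 ± 0.11 (SE) in heat shock (adjusted p 0.641) and rose by 0.56 ± 0.11 with rapamycin (adjusted p 0.0069), a fold of 1.48. These values turn on the untreated libraries: exchanged, MSN2 rose by 0.44 in heat shock, which was called, and its rapamycin change was 0.18 and was not. MSN4 went from 288 to 342, 341, 318, 259 and 245 in heat shock, above its time 0 up to 60 min and below it after. With rapamycin it was at 269 untreated and then at 256, 246, 207, 193 and 196, below both untreated libraries at all 5 times. Its mean changes of 0.05 ± 0.12 and −0.30 ± 0.12 were not called (adjusted p 0.741 and 0.0977), but the second was called with the untreated libraries exchanged (−0.40) or shared as a common time 0 (−0.35).

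Per kilobase of coding sequence MSN4 mRNA was 0.88 times MSN2 mRNA at 30 °C before heat shock and 1.07 times before rapamycin. The ratio was 0.84, 0.94, 1.03, 0.81 and 0.77 over the treated heat shock libraries. Over the rapamycin libraries it was 0.73, 0.68, 0.53, 0.49 and 0.55, all below the 7 other libraries. This ratio does not depend on how libraries were scaled.

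YAP1 had the highest level per kilobase of the 10 regulators in both untreated libraries, at 432 and 480 normalized counts per kilobase. In heat shock it went from 844 to 1280.1, 974, 910.5, 812 and 772, so the course ended below its start. With rapamycin it went from 937 to 1133, 1299, 1536, 1297 and 1316, above both untreated libraries throughout. The fitted average was 0.15 ± 0.14 (SE) in heat shock (adjusted p 0.369) and 0.48 ± 0.14 with rapamycin (adjusted p 0.0299), a fold of 1.40. With rapamycin YAP1 was not called when time entered in minutes (0.48), nor on dropping heat shock 90 min (0.48) or rapamycin 30 min (0.47). The heat shock value became 0.00 with the untreated libraries exchanged and 0.41 under quantile normalization, which was called.

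SKN7, which pairs a heat shock factor-like DNA-binding domain with a response regulator domain, was the only member called lower in either course. It went from 491 to 169, 216, 257, 239 and 274 in heat shock, lowest in the first treated library. That level was 0.344 times the untreated one (95% counting interval 0.284 to 0.415). With rapamycin it was at 359 untreated and then at 406, 387, 389, 328 and 309, and the ranges of the treated courses did not overlap. SKN7 averaged −1.10 ± 0.13 (SE) in heat shock, a fold of 0.466 (adjusted p 2.71e-05), and 0.01 ± 0.13 with rapamycin (adjusted p 0.954). With the untreated libraries exchanged the changes were −0.65 and −0.44, and both were called.

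XBP1 and USV1 were among the least abundant of the 10 before treatment and rose most in heat shock. XBP1 went from 78.4 untreated to 645, 807, 767, 824 and 619.8. USV1 went from 47.1 to 484, 576, 500.2, 454 and 416. Both held their level through the course, within a range of 619.8 to 824 for XBP1 and 416 to 576 for USV1. The highest library was 10.5 times the untreated one for XBP1 (95% counting interval 7.99 to 14.1) and 12.2 times for USV1 (8.60 to 18.0). Their mean changes were 3.20 ± 0.26 and 3.33 ± 0.17 (SE), folds of 9.17 and 10.1 (adjusted p 2.39e-06 and 1.29e-07). Among 4937 genes these ranked 110 and 96 by size of rise.

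With rapamycin XBP1 stood at 71.95 untreated and at 106, 75.9, 73.4, 109 and 115, and its mean change of 0.38 ± 0.26 (SE) was not called (adjusted p 0.299). XBP1 was at 1.473 times the untreated level at 15 min (95% counting interval 1.093 to 1.994) and 1.51 times at 90 min (1.118 to 2.048). At 120 min the ratio was 1.596 (1.195 to 2.145). The intervals at 30 min (0.748 to 1.48) and 60 min (0.734 to 1.42) held 1. USV1 went from 31.2 to 53.0, 64.55, 76.3, 64.02 and 74.3, all above both untreated libraries. Its rise of 1.05 ± 0.17, a fold of 2.07, was called (adjusted p 0.00246) and ranked 130 of 4937. With the untreated libraries exchanged it was 0.48 and not called. GIS1, a zinc finger factor with a histone demethylase-like domain, went from 199.7 to 609, 672, 549, 411 and 413 in heat shock and from 181 to 265, 234, 244, 221 and 244 with rapamycin. It rose in heat shock by 1.38 ± 0.16, a fold of 2.60 (adjusted p 2.31e-05). Its rapamycin value of 0.41 ± 0.16 was not called (adjusted p 0.0755), but passed on dropping heat shock 15 or 30 min (0.41), with each course fitted alone (0.41) and with a shared time 0 (0.34).

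**Figure D2:**
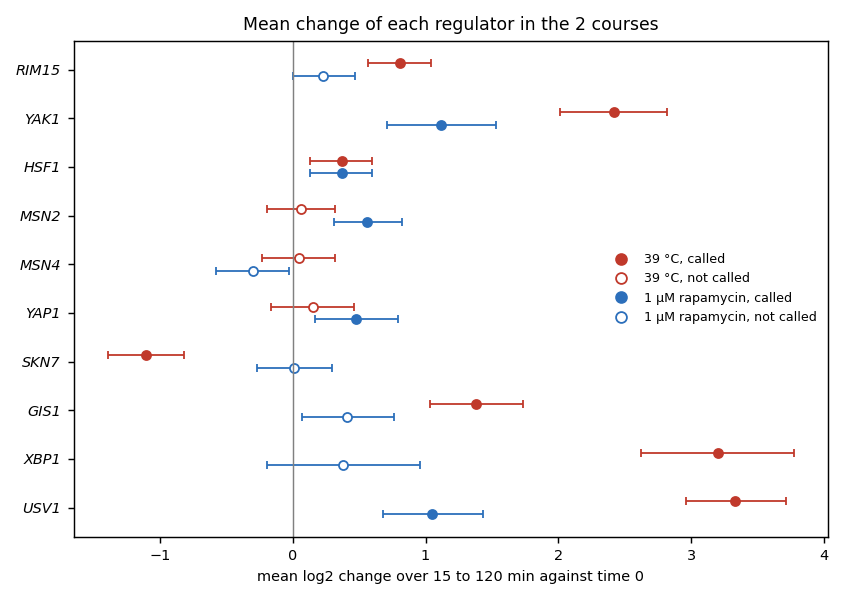
Mean log2 change over 15 to 120 min against time 0 for each regulator, red for 39 °C and blue for rapamycin. Bars are 95% confidence intervals of the fit and filled points are called at an adjusted p under 0.05. HSF1 lies at 0.37 in both courses, XBP1 and USV1 lie above 3 at 39 °C, and SKN7 at −1.10.

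The difference between the courses was then tested directly, as heat shock minus rapamycin. It was called for 7 of the 10 regulators, 5 above 0 and 2 below, against 45.9% of all genes, 21.7% above and 24.2% below. Above 0 were XBP1 (2.81 ± 0.37 SE, adjusted p 0.000282), USV1 (2.28 ± 0.24, adjusted p 7.63e-05), YAK1 (1.30 ± 0.26), GIS1 (0.96 ± 0.22) and RIM15 (0.57 ± 0.15). Below 0 were SKN7 (−1.11 ± 0.18, adjusted p 0.000955) and MSN2 (−0.50 ± 0.16, adjusted p 0.0269). For HSF1 the difference was 0.00, with a 95% interval of −0.34 to 0.33. The intervals of MSN4 (−0.04 to 0.74) and YAP1 (−0.77 to 0.10) also held 0. The MSN4 difference was called under equal totals (0.53) and with a shared time 0 (0.45), and the YAP1 difference with a shared time 0 (−0.49). With the untreated libraries exchanged, the difference of MSN2 turned to 0.26 and that of SKN7 shrank to −0.21, neither called, while MSN4 (0.55) and YAP1 (−0.64) were called. The MSN2 difference was also not called under equal totals (−0.32), with a shared time 0 (−0.12) or with the slope in minutes (−0.50).

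Time trends between 15 and 120 min were taken from the same fit. In heat shock 7 of 10 regulators had a called trend, 6 falling and SKN7 rising, against 53.7% of all genes, 28.3% rising and 25.4% falling. Per doubling of time YAK1 fell by 0.40 ± 0.07 (SE), GIS1 and YAP1 by 0.23 each, MSN4 by 0.17, HSF1 by 0.15 and MSN2 by 0.13, and SKN7 rose by 0.21 ± 0.05. RIM15, XBP1 and USV1 had no called trend in this fit. On dropping heat shock 15 min the trends of HSF1 (−0.10), MSN2 (−0.10), YAP1 (−0.17) and SKN7 (0.14) were not called. That of MSN2 was not called on dropping heat shock 90 min (−0.13), with a shared time 0, with each course fitted alone or in minutes either, nor that of MSN4 on dropping 120 min (−0.14). Under equal totals those of GIS1 (−0.06), HSF1 (0.02), MSN2 (0.04), MSN4 (0.00) and YAP1 (−0.06) were not. In that setting 3 regulators had a called trend: YAK1, SKN7 and a gene among RIM15, XBP1 and USV1. The absence of a trend in these last genes was therefore not the same under every scaling.

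With rapamycin only MSN4 had a called trend, −0.15 ± 0.05 (SE) per doubling of time (adjusted p 0.0495 in limma), against 18.2% of all genes. It was lost under 13 of 22 alternatives, including each that drops a rapamycin library (−0.17 to −0.14) and the one that drops heat shock 90 min (−0.15). The trends of the courses differed for 4 regulators, against 47.1% of all genes. These were YAK1 (−0.43 ± 0.10), YAP1 (−0.30 ± 0.07) and HSF1 (−0.20 ± 0.06), which fell in heat shock relative to rapamycin, and SKN7 (0.33 ± 0.07). The HSF1 value was not called on dropping heat shock 15 min (−0.16) or rapamycin 120 min (−0.18). The YAP1 value was not called on dropping 15 min from heat shock (−0.24) or from rapamycin (−0.22), or in minutes. Under equal totals neither was called (−0.06 for HSF1 and −0.16 for YAP1).

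Per kilobase of coding sequence the untreated heat shock library ran, from high to low, YAP1 (432), SKN7 (262.5), HSF1 (173), MSN2 (173), MSN4 (152), RIM15 (91.0), YAK1 (77.7), GIS1 (74.4), XBP1 (40.4) and USV1 (40.0). The untreated rapamycin library had the same first 3 and last 2, with MSN4 (142) above MSN2 (132.5) and GIS1 (67.3) above YAK1 (50.4). In the heat shock order 5 of the 9 neighbouring pairs differed by less than counting error (95% intervals of the ratio that held 1): HSF1 and MSN2, MSN2 and MSN4, RIM15 and YAK1, YAK1 and GIS1, and XBP1 and USV1. In the rapamycin order 3 did: HSF1 and MSN4, MSN4 and MSN2, and XBP1 and USV1. At 15 min of heat shock YAK1 led with 689 per kilobase, before YAP1 (656), USV1 (412) and XBP1 (332), and SKN7 was last with 90.3. In the rapamycin libraries YAP1 stayed first at all 5 times, and XBP1 and USV1 stayed the lowest pair.

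Across the 12 libraries RIM15, YAK1, GIS1, XBP1 and USV1 had like profiles, with Pearson's r of 0.94 to 0.99 over their 10 pairs on log2 values. SKN7 ran against them (−0.91 to −0.85). MSN2, MSN4 and YAP1 had r of −0.46 to 0.70 with each other. HSF1 had r of 0.61 (XBP1) to 0.82 (YAK1) with the first group and −0.80 with SKN7. With MSN2, MSN4 and YAP1 it had r of 0.69, 0.25 and 0.31. These coefficients describe 12 libraries that share their scaling and their time 0, and they carry no test. Among 4809 other genes with a mean of at least 50, the profiles most like each regulator were as follows. Those nearest to RIM15 were RIM4 (r 0.992) and ATH1 (0.991), and those nearest to YAK1 were JSN1 (0.989) and FAT3 (0.987). IMA1 (0.979) and AHA1 (0.950) came nearest to HSF1, SIS1 (0.917) and PIM1 (0.912) to MSN2, and PGI1 (0.979) and FBA1 (0.960) to MSN4. RAD52 (0.972) and PRE2 (0.946) came nearest to YAP1, and NUP133 (0.977) and SEC14 (0.975) to SKN7. PCI8 (0.985) and BDH1 (0.984) came nearest to GIS1, IML2 (0.995) and ZRG8 (0.991) to XBP1, and ECM4 (0.996) and GUD1 (0.995) to USV1. By ranks (Spearman's rho) these pairs ran from 0.783, for HSF1 with AHA1, to 0.972, with RIM15 and RIM4 at 0.874.

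The regulators' own mRNAs were next set beside genes they are known to act on. The lists used here and below were chosen with earlier results of these data known, so their counts describe and do not test. Of all genes tested 32.6% were called higher and 37.2% lower in heat shock, and 12.3% and 13.9% with rapamycin. The 18 Hsf1 targets, among them chaperone genes, stood at a median of 3.55 after 15 min at 39 °C and of 1.37 after 120 min, where HSF1 mRNA was at 0.66 and 0.20. With rapamycin their median was 1.51, 2.23 and 1.95 after 15, 60 and 120 min, with HSF1 mRNA at 0.31, 0.28 and 0.49. Of the 18, 14 rose in heat shock and 16 with rapamycin, and none fell. SSA1, an Hsp70 gene, rose by 3.85 ± 0.36 and 3.91 ± 0.36 (SE, limma adjusted p 6.39e-06 and 0.000393). SSA2, a near-identical copy whose reads may be split with it, was at −0.36 ± 0.32 in heat shock (adjusted p 0.338), at 0.19 under quantile normalization and at −0.60, called, on dropping heat shock 15 min. It rose by 1.24 ± 0.32 with rapamycin (adjusted p 0.0196), not called with the untreated libraries exchanged (0.92) or with the slope in minutes (1.24).

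The 18 Msn2 and Msn4 targets had a median of 6.60 at 15 min and 4.69 at 120 min of heat shock, and all 18 rose. Among all genes tested 32.6% were called higher, but this list was chosen with earlier results of these data known. MSN2 and MSN4 mRNA stood at 0.31 and 0.25 at 15 min and at −0.05 and −0.23 at 120 min. With rapamycin the median of the targets was 0.39 at 15 min and 1.27 at 120 min, and 12 of 18 were called higher, 7 with the untreated libraries exchanged and 4 with the slope in minutes. MSN2 stood at 0.49 and 0.51 at those times and MSN4 at −0.07 and −0.45. HSP12, a membrane-protecting stress protein, rose by 7.90 ± 0.29 (SE) in heat shock and was at 0.53 ± 0.29 with rapamycin (adjusted p 2.71e-08 and 0.19), the latter called with a shared time 0 (0.63). CTT1, the cytosolic catalase, rose by 5.01 ± 0.27 and 0.82 ± 0.27 (adjusted p 2e-07 and 0.0492). The second call was lost under 15 of 23 alternatives, including those that drop heat shock 30 or 90 min or any rapamycin time after 15 min (0.75 to 0.85).

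The 14 Yap1 targets were mixed in heat shock, with 7 called higher and 3 lower and a median of 0.51 at 15 min. Of all genes tested 32.6% were called higher and 37.2% lower there, and 12.3% and 13.9% with rapamycin. YAP1 mRNA stood at 0.60 at that time. With rapamycin 4 were called higher and none lower, and the median was between 0.00 and 0.18 at the 5 times while YAP1 mRNA was between 0.27 and 0.71. On dropping rapamycin 30, 60 or 90 min, or with the slope in minutes, 2 of the 14 were called. TRX2, a cytosolic thioredoxin gene, rose by 1.81 ± 0.17 and 0.58 ± 0.17 (SE, adjusted p 5.42e-06 and 0.03 in limma). The second value was not called on dropping any of the same 3 libraries (0.53 to 0.59) or with the slope in minutes (0.58). TRR1, its reductase, fell by 0.50 ± 0.16 in heat shock (adjusted p 0.015; not called at −0.23 under equal totals, −0.05 under quantile normalization or −0.34 with the untreated libraries exchanged, nor with the slope in minutes or each course fitted alone) and was at 0.10 ± 0.16 with rapamycin (adjusted p 0.677).

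**Figure D3:**
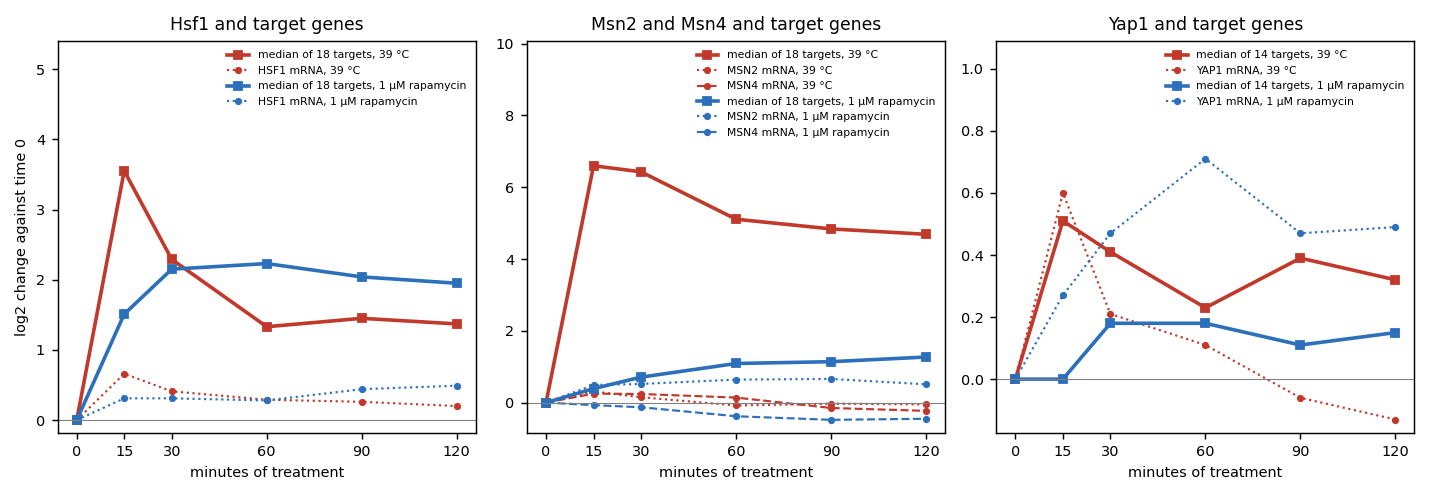
Log2 change against time 0 of HSF1, MSN2, MSN4 and YAP1 mRNA (thin broken lines, round points) and the median of their target genes (thick lines, squares), red for 39 °C and blue for rapamycin, with a separate vertical scale in each panel. Msn2 and Msn4 targets reach 6.60 at 15 min of heat shock while the mRNAs of both factors stay between −0.23 and 0.31 in that course. The target lists were chosen with earlier results of these data known.

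Genes whose products control Msn2 and Msn4 (13, among them protein kinase A subunits) held 6 called higher and 2 lower in heat shock, with a median of 0.18. The shares over all genes tested were 32.6% higher and 37.2% lower in heat shock, and 12.3% and 13.9% with rapamycin. TPK2, which encodes a catalytic subunit of protein kinase A, rose by 2.80 ± 0.14 (SE, adjusted p 1.38e-07 in limma). TPK3, also a catalytic subunit gene, fell by 1.32 ± 0.25, and MCK1, a GSK-3 family kinase gene, fell by 0.43 ± 0.12. The fall of MCK1 was not called under equal totals (−0.16), quantile normalization (−0.08) or either change of time 0 (−0.25 and −0.06). With rapamycin 3 rose and none fell (median 0.22), against 5 called under equal totals and 7 with each course fitted alone, with TPK2 at 0.70 ± 0.14 (adjusted p 0.00748).

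Of 9 genes around Rim15, 6 rose and 1 fell in heat shock (median 0.49), against 32.6% and 37.2% of all genes. With rapamycin these shares of all genes were 12.3% and 13.9%. IGO2 and IGO1, the endosulfines that Rim15 phosphorylates, rose by 0.96 ± 0.16 and 0.76 ± 0.13 (SE, adjusted p 0.000277 and 0.000418 in limma). SCH9, a kinase that restrains Rim15, fell by 0.72 ± 0.21 (adjusted p 0.00907), a call lost under equal totals (−0.45) and with the untreated libraries exchanged (−0.19). With rapamycin IGO1 alone was called, at 0.55 ± 0.13 (adjusted p 0.0139), the median was 0.12, and 2 genes were called under equal totals, with either change of time 0, with each course fitted alone and on dropping heat shock 60 min. Of 6 genes around Yap1 and Skn7, 3 rose and 1 fell in heat shock (median 0.40), against the same shares of all genes. HYR1, the peroxide sensor of Yap1, rose by 1.17 ± 0.13 and SSK1, a response regulator that shares the Sln1 relay with Skn7, by 0.87 ± 0.13. SLN1, the histidine kinase of that relay, fell by 0.53 ± 0.12, not called under equal totals (−0.26). With rapamycin SSK1 rose by 0.79 ± 0.13 (adjusted p 0.00252), the single call of the 6 (median −0.10). In edgeR, under either other scaling or time 0, with each course fitted alone, and on dropping heat shock 15, 60 or 120 min or rapamycin 15 min, 2 were called.

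The 6 chaperone genes whose products bind Hsf1 or its Hsp70 partners are all also among the Hsf1 targets above. Of them 4 rose in heat shock (median 1.30) and 5 with rapamycin (median 2.14), or 3 with the slope in minutes. The all-gene shares called higher were 32.6% and 12.3%. HSP82, an Hsp90 gene with a near-identical partner in HSC82, rose by 4.82 ± 0.30 and 3.79 ± 0.30 (SE, adjusted p 4.78e-07 and 0.00023 in limma).

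Among 17 relatives that share a DNA-binding domain family with a member, 6 rose and 1 fell in heat shock (median 0.27), and 11 in all were called under equal totals. Of all genes tested 69.8% were called in heat shock, 32.6% higher and 37.2% lower. With rapamycin these all-gene shares were 26.3%, 12.3% and 13.9%. The largest rises were those of CIN5, a Yap family gene, at 1.58 ± 0.18 (SE), and MGA1, which encodes a heat shock factor-like protein, at 1.36 ± 0.27 (adjusted p 2.22e-05 and 0.00115 in limma). YAP7, another Yap family gene, fell by 0.82 ± 0.15. With rapamycin 3 rose and 1 fell (median 0.25), against 7 called under equal totals and 2 under quantile normalization or with the slope in minutes. PHD1, a filamentous growth factor with an APSES domain, rose by 0.98 ± 0.22 (adjusted p 0.0101), a call lost with the slope in minutes. MGA1 rose by 0.93 ± 0.27 (adjusted p 0.0326), a call lost under quantile normalization (0.58), with the untreated libraries exchanged (0.35) and on dropping heat shock 90 min (0.93) or rapamycin 90 or 120 min (0.92 and 0.84). RPH1, the paralog of GIS1, fell by 0.51 ± 0.14 with rapamycin (adjusted p 0.0278; not called under equal totals, at −0.42, or with the slope in minutes) and was at 0.27 ± 0.14 in heat shock (adjusted p 0.118; called under equal totals, at 0.54, with a shared time 0, at 0.39, and with the untreated libraries exchanged, at 0.52). RGM1, a zinc finger gene close to USV1, was at −0.12 ± 0.16 and −0.08 ± 0.16, not called in either course (adjusted p 0.506 and 0.737), and at 0.15 and 0.01 under equal totals. The heat shock value turned to 0.47 and the rapamycin value to −0.67 with the untreated libraries exchanged, both then called.

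Last, the number of stress response elements was set beside the changes of the 4911 tested genes that have an annotated window, as a description without a test; the other 26 tested genes were left out. Of 3242 genes with no element 24.8% were called higher in heat shock, with a median change of −0.20. The share was 41.8% of 1276 genes with 1 element, 64.5% of 304 genes with 2 and 74.2% of 89 genes with 3 or more, whose median was 1.65. YAK1 (2.42), XBP1 (3.20) and USV1 (3.33) belong to the last group. RIM15 and HSF1 rose with no element in their windows. With rapamycin the shares called higher were 9.5%, 14.5%, 24.7% and 40.4% in the same order, and the median of the 89 genes was 0.46. YAK1 (1.12) and USV1 (1.05) lay above that median, and XBP1 (0.38, not called) lay below it.

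**Figure D4:**
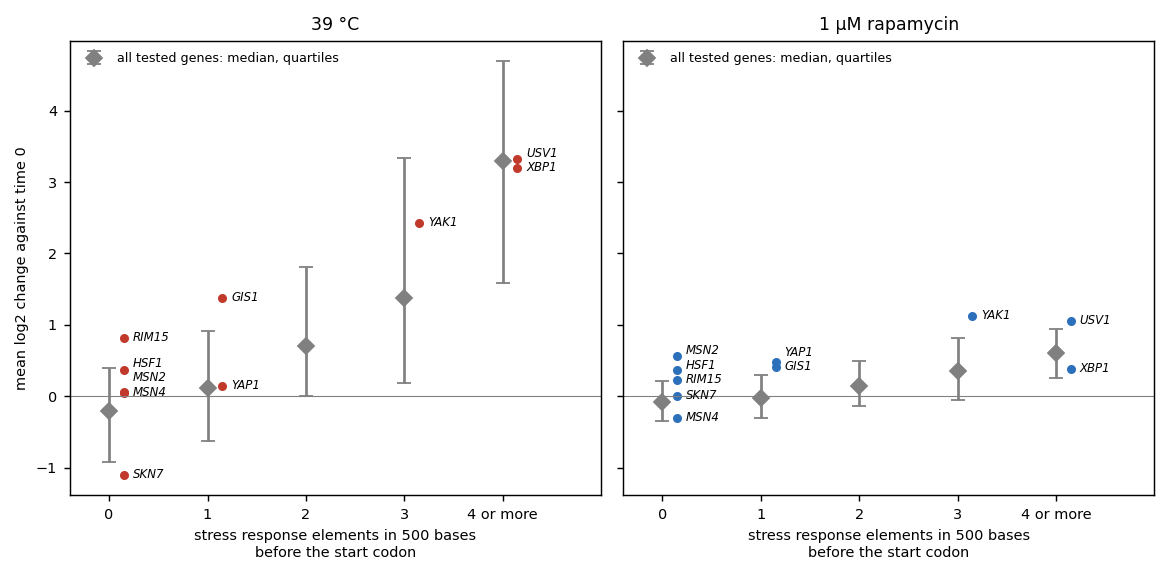
Mean log2 change against time 0 by the number of stress response elements in the 500 bases before the start codon, at 39 °C (left) and with rapamycin (right). Grey diamonds and bars are medians and quartiles of the tested genes with that number (18 genes in the last group), and coloured points are the 10 regulators. At 39 °C the medians run from −0.20 with no element to 3.30 with 4 or more, where XBP1 and USV1 lie at 3.20 and 3.33.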

How the data were processed

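The deposited table lists 5045 genes in 12 columns, 1 per library. The authors' values are a signal, called normalized gene counts in the file's own name. Bowtie, HTSeq and sacCer3 are named in the submitters' processing notes. Versions, strand use, annotation and the normalization method are not given in the sources used here. Values rise in steps that differ by library, the worth of 1 read (0.8133 to 1.4261), and dividing by the step gave whole reads within 0.05 read for 100.0% of them. Counting intervals come from these reads and cover counting error only. Of the IDs, 5023 matched RefSeq's R64 annotation, used for positions, coding lengths and sequences, and 22 did not.

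Genes with a mean of at least 10 were tested on log2(value + 1) (4937 genes, 108 left out), which understates changes of low genes. The limma 3.58.1 fit (R 4.3.3, eBayes with a trend, 6 residual and 4.29 prior degrees of freedom) gave each course an intercept at its own time 0, a mean change over the treated times and a slope in centred log2(time). The residual is shared, so a curved response in 1 course widens the error of the other. The fit was checked on simulated counts that had no time trend and independent noise between libraries. That setting differs from these data, so the check gives no error rate for them. An edgeR 4.0.16 quasi-likelihood fit of the recovered reads was an alternative chosen after seeing the data, and called 3405 genes in heat shock and 1331 with rapamycin, 7 and 5 of them members. The members and lists were chosen with earlier results of these data known. Named genes were the 10 members, the 2 nearest profiles of each, the 2 largest called rises and falls of each list of relatives or pathway genes, the paralogs RPH1 and RGM1, and the first 2 genes of each target list. A gene that this rule names is not reported here. Other alternatives were pseudocounts, filters, scalings, time 0, time scale, variance trend, separate courses, a minimum change and leaving out each treated library.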

Additional observations from a re-analysis of the deposited data

Results flagged for a closer look

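The regulators whose mean change differed between heat shock and rapamycin, by the test of the difference itself, were XBP1 (2.81), USV1 (2.28), YAK1 (1.30), GIS1 (0.96), RIM15 (0.57), MSN2 (−0.50) and SKN7 (−1.11) on the log2 scale. With the untreated libraries exchanged the differences of MSN2 (0.26) and SKN7 (−0.21) were not called. Those whose time trends differed were SKN7 (0.33 per doubling of time), HSF1 (−0.20), YAP1 (−0.30) and YAK1 (−0.43). Under equal totals the trend differences of HSF1 (−0.06) and YAP1 (−0.16) were not called. With 1 library per time point there was no group in which a single library could be tested as an outlier.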

How the results depend on the processing

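In heat shock 7 regulators were called, and 5 to 9 under the 23 alternatives. Of all 4937 genes tested 3446 were called, and 1816 to 3742 under the same alternatives. With rapamycin 5 were called, and 2 to 7 under the 23 alternatives. Among these were 3 with the untreated libraries exchanged, 3 with the slope in minutes, 2 with a required mean change of 1, and 3 to 6 without each treated library. The difference between the courses was called for 7, and for 4 to 8 under 22 alternatives, the fewest with a required change of 1. Heat shock trends were called for 7, for 3 under equal totals and for 3 to 7 without each treated library. The single rapamycin trend became 0 without a filter, under equal totals, quantile normalization, a shared time 0, minutes, no variance trend and edgeR, 2 with each course fitted alone, and 0 to 1 without each treated library. Different trends were called for 4, and for 2 to 5 under 21 alternatives, the fewest under equal totals.

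Values that changed sign were mostly near 0, but not all. The MSN2 difference between courses was at −0.50 and called, and SSA2 in heat shock was at −0.36. The HSF1 difference between courses (0.00) became 0.18 under equal totals, 0.03 under quantile normalization, 0.13 with a shared time 0, 0.26 with the untreated libraries exchanged, 0.01 in edgeR and −0.03 to 0.03 without each treated library. Under equal totals the heat shock trends of HSF1, MSN2 and MSN4 became 0.02, 0.04 and 0.00. With the untreated libraries exchanged the MSN2 difference was 0.26, SKN7 with rapamycin −0.44, YAP1 in heat shock 0.00, RGM1 0.47 and −0.67, and TRR1 with rapamycin −0.07. With a shared time 0 SKN7 with rapamycin was −0.21 and RGM1 in heat shock 0.17. RGM1 under equal totals was 0.15 and 0.01, SSA2 in heat shock under quantile normalization 0.19, and SKN7 with rapamycin −0.02 without its 60 min library. The cause was not tested.

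Over all genes 3446 were called in heat shock (1816 with a required change of 1). With rapamycin 1296 were called, 768 with the slope in minutes, 1985 with each course fitted alone and 314 with a required change of 1. The difference was called for 2267, 3794 with a shared time 0 and 1355 with a required change of 1. Heat shock trends numbered 2651, and 1440 without the 15 min library. Rapamycin trends numbered 899, from 224 to 1716. Trend differences numbered 2323, and 1440 without the 15 min rapamycin library. Single untreated libraries set every change of a course, and 33 reads of USV1 set its precision there.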
